A study of Mus musculus with 3 samples.

Results

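In 1 library of sorted paw myeloid cells taken at day 9 of a serum transfer arthritis, 89 of 5945 cells that passed the cell filter carried RNA of both Ly6c2 and Ccr2 and met a set of exclusions described next. The whole series holds 24485 passing cells in 3 libraries, and the stromal libraries held 0 cells that met the same rule. The cells were chosen by measured values: at least 2 UMIs (unique molecular identifiers, which count captured RNA molecules) of Ly6c2 and at least 2 of Ccr2, 0 UMIs of C1qa, Arg1, Flt3, Rsad2 and Ctsk, and fewer than 3 of Thbs1. They are called the monocytes here, and they made up 1.497% of the library (exact Clopper-Pearson 95% interval 1.204 to 1.839%). They were set against 2833 cells with at least 1 C1qa UMI and against 1024 cells with at least 2 Arg1 UMIs, of which 551 cells belong to both comparison groups.

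All cells came from mouse hind paws freed of skin, muscles and tendons and digested with collagenase IV and DNase. The mice had received serum of arthritic K/BxN mice by the intraperitoneal route, which starts a joint inflammation that later subsides. The day 9 library held CD45+CD11b+Ly6G- cells, so a sort for leukocytes that carry CD11b and lack the neutrophil marker Ly6G came before the RNA was read. The other libraries held CD45- cells at day 0, before serum, and at day 5. Strain, sex, age and the number of mice per library are not given in the sources used here. With 1 library per group no test was run: intervals cover counting error only, and day, library and animals cannot be told apart. Every comparison between the monocytes and other cells lies within the day 9 library.

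Classical monocytes are made in the bone marrow, carry Ly6C and the chemokine receptor CCR2 in mice, and leave marrow and blood towards the CCR2 ligand CCL2. In inflamed tissue they can take on macrophage or dendritic cell features, and they lose Ly6C as they do. A marrow route that passes through granulocyte-monocyte progenitors gives monocytes that still carry granule protein RNA, and another gives monocytes with antigen presentation genes.

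Ly6c2 (ENSMUSG00000022584) lies on the minus strand at chr15:75108158-75111970 of mm10 and encodes a surface protein held by a lipid anchor. Ccr2 (ENSMUSG00000049103) lies on the plus strand at chr9:124101950-124113557 and encodes the CCL2 receptor. The 250 bases before the RefSeq start (GRCm38.p6, first listed start) of both selecting genes, and of Mmp8 and Prtn3, genes of granule proteases that stood high in the monocytes, show the sequence next to which these transcripts begin. Capitals mark the ETS core AGGAAG, which binds factors such as PU.1, and the C/EBP letters TTGCNNAA, each on either strand. The windows are chr15:75111972-75112221 (minus strand, Ly6c2), chr9:124101933-124102182 (plus, Ccr2), chr9:7558179-7558428 (plus, Mmp8) and chr10:79879417-79879666 (plus, Prtn3). The mm10 gene annotation gives Prtn3 as chr10:79874476-79883174, so that window lies inside its gene span. Most of the Ccr2 window also lies inside the Ccr2 span given above.
Ly6c2: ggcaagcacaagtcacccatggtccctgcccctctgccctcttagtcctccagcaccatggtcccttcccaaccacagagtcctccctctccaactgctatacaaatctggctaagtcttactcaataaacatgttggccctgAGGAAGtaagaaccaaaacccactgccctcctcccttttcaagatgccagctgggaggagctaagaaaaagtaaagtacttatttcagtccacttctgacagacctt
Ccr2: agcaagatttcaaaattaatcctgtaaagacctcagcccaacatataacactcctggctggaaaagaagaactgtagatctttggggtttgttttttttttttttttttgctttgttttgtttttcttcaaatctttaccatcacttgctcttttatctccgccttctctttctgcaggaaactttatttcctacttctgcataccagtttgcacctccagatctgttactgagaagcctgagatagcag
Mmp8: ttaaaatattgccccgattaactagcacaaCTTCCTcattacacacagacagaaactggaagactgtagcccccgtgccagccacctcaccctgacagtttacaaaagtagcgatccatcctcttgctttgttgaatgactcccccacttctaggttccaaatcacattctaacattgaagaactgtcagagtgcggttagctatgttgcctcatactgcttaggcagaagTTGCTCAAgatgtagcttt
Prtn3: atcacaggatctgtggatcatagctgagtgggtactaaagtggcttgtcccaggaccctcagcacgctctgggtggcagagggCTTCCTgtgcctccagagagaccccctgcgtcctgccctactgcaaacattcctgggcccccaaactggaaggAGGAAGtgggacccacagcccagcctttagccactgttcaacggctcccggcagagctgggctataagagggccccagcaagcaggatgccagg

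The longer PU.1 letters GAGGAAGT, which contain the ETS core, occurred once in the Ly6c2 window (108 bases before the start, at -108), once in the Mmp8 window (-221) and once in the Prtn3 window (-95). The Mmp8 window also held the C/EBP letters at -19, and the Ccr2 window held none of these letters. Windows were read for Ly6c2, Ccr2 and those of the genes with the largest ratios that had an entry, 13 in all. Nfe2, Hp and Cd7 are named only. The ETS core was in 8 of 13 windows (61.5%) beside 29.2% of 27025 RefSeq windows of the same length. The PU.1 letters were in 3 (23.1%) beside 2.44%, and the C/EBP letters in 4 (30.8%) beside 9.55%. These matches describe letters only.

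The selection removed most cells that had both RNAs. Of 751 cells with at least 2 UMIs of each gene, 539 remained once cells with C1qa were taken out, 450 after Arg1, 421 after Flt3, 379 after Rsad2, 314 after Ctsk and 89 after the limit on Thbs1, the gene of the matrix protein thrombospondin 1. Thbs1 was the only failed condition for 225 cells, against 20 for Ctsk, 16 for Flt3, 13 for C1qa, 10 for Arg1 and 6 for Rsad2. Depth differed between the cells kept and left out. The median was 5548 UMIs per monocyte (range 1646 to 41333), 7930 in the 662 cells left out, 6691 in the C1qa cells and 8208 in the Arg1 cells.

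**Figure D1:**
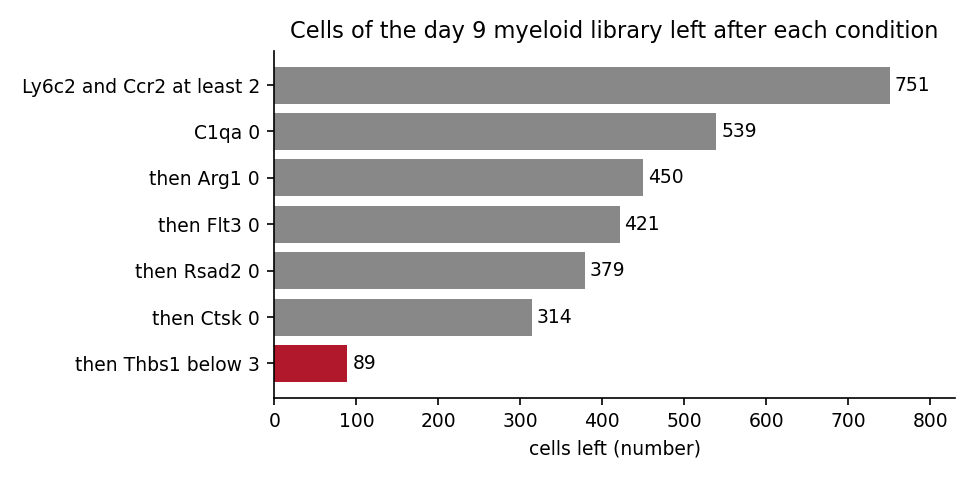
Cells left (x axis, number of cells; bar length) as each condition of the rule is applied in order (y axis, top to bottom) to the 5945 passing cells of the day 9 library. The bars step from 751 cells with both RNAs to 89, and the last step, the limit on Thbs1, takes out 225, more than any of the 5 conditions of 0 UMIs before it.

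Cells on either side of each limit were compared, and whether they form a graded population or a mix of cell types was not tested. The 18 monocytes with exactly 2 Ly6c2 UMIs had 1259 CPM (UMIs of a gene per 1000000 UMIs of the group) of Plac8 and 6723 CPM of Cd74, the MHC class II invariant chain. The 31 cells with 1 Ly6c2 UMI that met every other condition had 367.7 CPM of Plac8 and 7369 CPM of Cd74. The 217 with 0 Ly6c2 UMIs had 149.7 CPM of Plac8 and 11704 CPM of Cd74. Plac8 was thus lower and Cd74 higher at each step below the Ly6c2 limit. On the Ccr2 side, 8 monocytes had exactly 2 UMIs and 5 cells had 1. The 39 cells with 0 Ccr2 UMIs that met the rest of the rule held granule RNA, with 23502 CPM of Camp, 96599 CPM of S100a8 and 3236 CPM of Prtn3.

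Cells on the other side of the Thbs1 limit carried monocyte genes too. There were 62 monocytes with 0 Thbs1 UMIs and 15 with 2, and 25 of the 225 cells kept out by Thbs1 alone had 3 to 5. Those 225 cells had 1511 CPM of Ly6c2 beside 1648 CPM in the monocytes, 2148 CPM of Plac8 beside 2275 CPM and 653.2 CPM of Hp beside 531.9 CPM. Vcan, the gene of the matrix proteoglycan versican, stood at 546.0 CPM beside 245.0 CPM. The cells kept out were higher in inflammatory RNA: Il1b stood at 3581 CPM beside 1480 CPM, Cxcl2 at 3980 CPM beside 1500 CPM, and Cd14 at 1363 CPM beside 662.8 CPM.

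Against the label, the cells carried the monocyte programme to different degrees. Each had at least 4 of the 18 other classical monocyte markers on the list (median 13, highest 18). The summed level of these markers overlapped with other cells. Its median per cell was 21730 CPM in monocytes, 15359 CPM in C1qa cells and 18203 CPM in Arg1 cells. Ly6c2 ran from 2 to 82 UMIs per cell with a median of 5, and Ccr2 from 2 to 69 with a median of 7. The 69 Ccr2 UMIs were in a cell that also held T cell genes, described below, and the highest count in the other cells was 23. Itgam, which encodes the CD11b used for the sort, was found in 75 cells, and Ptprc, which encodes CD45, in 83. Many markers of other cell types had 0 UMIs: Col1a1, Col1a2, Col3a1, Dcn, Pdgfra, Bglap and Cdh5 of stromal cells, Cd79a, Ms4a1 and Ebf1 of B cells, Cpa3, Cma1, Mcpt8, Fcer1a and Gata2 of mast cells and basophils, Ncr1, Klrb1c, Gzma, Trbc1 and Cd8a of NK and T cells, and Clec9a, Fscn1 and Siglech of dendritic cells. Others were found. The B cell list had 50 UMIs in 34 cells, 38 of Ighm and 12 of Cd79b. Against C1qa and Arg1 cells the ratios were 1.75 and 2.81 for Ighm and 2.29 and 4.26 for Cd79b. The dendritic cell list had 80 UMIs in 22 cells from 8 of 11 markers, and the NK and T cell list 65 UMIs in 10 cells, 39 of them in 1 cell. Their part in the results was not tested. Haemoglobin RNA was found in 24.7% of monocytes with at most 4 UMIs, beside 26.5% of C1qa cells with up to 7782 UMIs.

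Small sets of cells went against the label. A cell of 14189 UMIs held 507 UMIs of Camp, 368 of Ngp, 140 of Ltf, 2011 of the 2366 S100a8 UMIs and 2044 of the 2178 S100a9 UMIs of all monocytes, beside 12 of Ly6c2 and 2 of Ccr2. A cell of 41333 UMIs, the deepest, held 25 UMIs of Trac and Cd3e, genes of the T cell receptor complex, beside 18 of Plac8 and 40 of Lyz2. These are called the 2 mixed cells, and for several lists and genes that rest on them values are given with and without them. Scrublet marked 0 barcodes as doublets, so it did not work here. Removing the 486 barcodes of highest doublet score took out 1 monocyte (1.12%) beside 6.78% of all passing cells.

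A larger set, 14 monocytes (15.7%), fell in a cluster of 513 cells led by Ifitm1, Klrd1, Ffar2, Cd7, H2-Oa, Il1r2 and Cd209a. They had 970.7 CPM of Lyz2, the lysozyme gene, beside 12327 CPM in the 49 monocytes of the cluster led by Ly6c2 itself. Cd209a, the gene of a lectin of monocyte-derived dendritic cells, was found in 12 of the 14 and in none of the 49. Without these 14 cells there were 75 monocytes. Of the genes tested, 278 were then at least 2-fold higher and 326 lower than in C1qa cells, beside 255 (7.63% of 3344) and 327 (9.78%) with them. Against Arg1 cells the counts were 314 and 323, beside 294 (8.88% of 3309) and 313 (9.46%).

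Most classical monocyte genes other than the selecting ones stood above both comparison groups. Plac8 was found in 84 of 89 cells and stood at 2275 CPM (exact Poisson 95% interval 2156 to 2400), against 143.9 CPM in C1qa cells and 161.8 CPM in Arg1 cells, ratios of 15.8 (14.9 to 16.8) and 14.1 (13.1 to 15.1). Per cell it ran from 0 to 9744 CPM with a median of 1764 CPM.

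Hp, the gene of the haemoglobin-binding protein haptoglobin, was found in 64 cells at 531.9 CPM, 11.6-fold (10.3 to 13.2) above C1qa cells and 10.9-fold (9.45 to 12.5) above Arg1 cells. Chil3, the gene of a chitinase-like protein, was found in 56 cells at 1077 CPM, with ratios of 9.52 (8.73 to 10.4) and 6.20 (5.67 to 6.78). Ifitm6, of the interferon-induced transmembrane family, was found in 65 cells at 523.6 CPM, with ratios of 11.99 (10.6 to 13.6) and 12.4 (10.7 to 14.3). The first of the mixed cells held 58 of its 312 UMIs. Cells at 0 were present for each of these, as the plot of single cells shows. Mgst1, a glutathione transferase gene, had ratios of 6.94 (5.65 to 8.46) and 7.26 (5.80 to 9.02), and Gm9733 had 16.0 (10.9 to 23.01) and 19.9 (12.6 to 31.4). Ms4a4c reached 330.6 CPM with ratios of 4.89 and 4.70, and Vcan 245.0 CPM with 3.37 and 2.01.

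Other genes of the same list were close to the comparison cells or below them. Lyz2 stood at 8801 CPM against 7246 CPM in C1qa cells and 7612 CPM in Arg1 cells, ratios of 1.22 and 1.16. S100a4, a calcium-binding protein gene, stood at 3056 CPM with ratios of 0.647 and 0.561. Fn1, the fibronectin gene, stood at 1237 CPM against 2267 CPM and 3680 CPM, ratios of 0.546 (0.507 to 0.587) and 0.336 (0.312 to 0.361). In all, 13 of the 18 measured markers were at least 2-fold higher than in C1qa cells and none lower, with a median log2 ratio of 2.02, beside 255 of 3344 genes tested that were higher (7.63%) and a median of -0.02. Against Arg1 cells 13 were higher and Fn1 lower, with a median log2 ratio of 2.26, beside 294 of 3309 genes that were higher (8.88%) and a median of 0.00. The genes that were at least 2-fold lower were 327 against C1qa cells (9.78%) and 313 against Arg1 cells (9.46%). These shares of all tested genes stand beside every list count that follows. The rule used the same contrast, so these counts and all that follow on it are a description of the cells it picked.

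**Figure D2:**
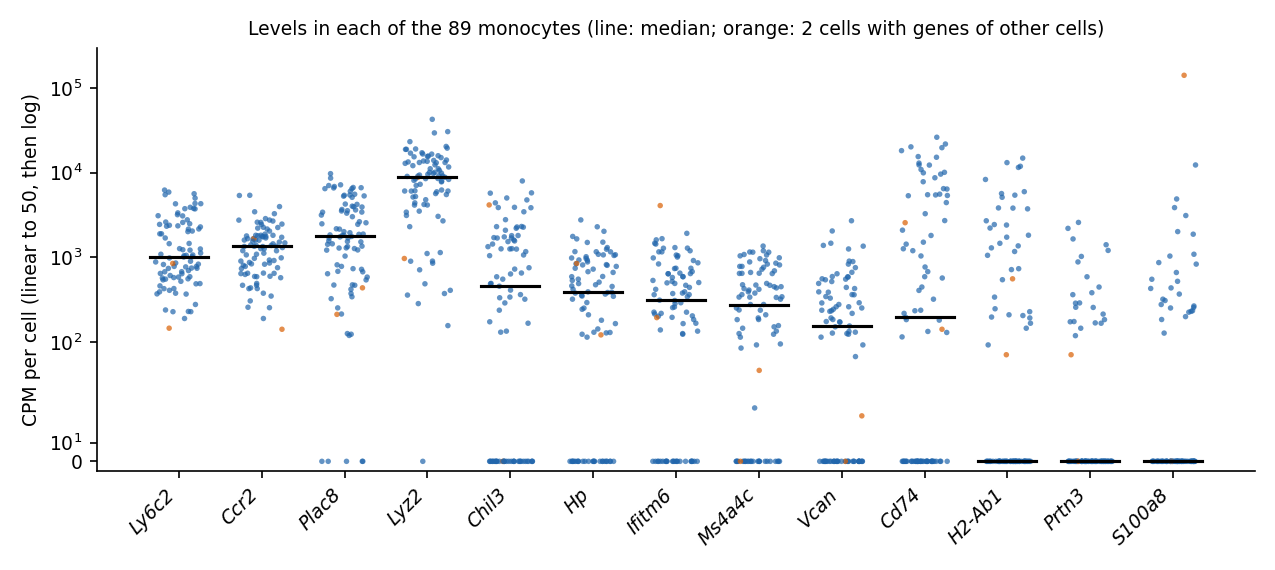
Level of 13 genes (x axis) in each of the 89 monocytes (points; y axis, CPM within the cell, linear to 50 and logarithmic above), with the median as a line and the 2 mixed cells in orange. Ly6c2, Ccr2 and Plac8 had medians of 1009, 1343 and 1764 CPM, while H2-Ab1, Prtn3 and S100a8 had a median of 0 with single cells at up to 14877, 2584 and 141730 CPM.

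Shares of cells with a UMI were also read in cells with a lining macrophage gene. In 439 cells with at least 2 UMIs of Vsig4, a receptor gene of lining macrophages, Plac8 was found in 5.92% (median depth 5684 UMIs), beside 94.4% of monocytes at a like median depth of 5548 and 15.3% of C1qa cells. After each cell was thinned to 2000 UMIs, which left out 3 monocytes, 20 Vsig4 cells and 162 C1qa cells, the shares were 87.2% (78.3 to 93.4), 3.58% and 9.29%. Hp was found in 71.9% of monocytes beside 3.87% of Vsig4 cells (53.5% beside 0.955% after thinning), and Prtn3 in 27.0% beside 1.37% (16.3% beside 0.955%). Not every gene separated the groups this well. Vcan was found in 61.8% of monocytes, 37.8% of Vsig4 cells and 44.0% of Arg1 cells (25.6%, 17.4% and 21.1% after thinning). S100a8 was found in 32.6%, 19.4% and 48.9% (20.9%, 9.31% and 21.4%). Cells of the comparison groups themselves included 377 C1qa cells and 212 Arg1 cells with a Ly6c2 UMI.

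Genes of granule proteins and antimicrobial defence stood high in a part of the cells. Mmp8, the gene of neutrophil collagenase, was found in 33 cells at 102.4 CPM, with ratios of 12.95 (9.58 to 17.3) against C1qa cells and 7.87 (5.75 to 10.7) against Arg1 cells. Prtn3, the gene of proteinase 3, was found in 24 cells at 283.6 CPM, with ratios of 7.51 (6.35 to 8.85) and 16.4 (13.3 to 20.2), and 1 cell held 58 of its 169 UMIs. Saa3, the gene of an acute-phase apolipoprotein, came from 15 cells with 80 of 230 UMIs in 1 of them, at 386.0 CPM and ratios of 9.47 (8.18 to 10.9) and 7.502 (6.42 to 8.75). Each of these rested on under 40 cells. Slpi, the gene of an antiprotease, was found in 37 cells with ratios of 7.96 and 5.32, and Cd177, the gene of a surface protein that carries proteinase 3 on neutrophils, in 27 cells with ratios of 8.09 and 5.62. Granule RNA was not particular to the monocytes. The 225 cells kept out by Thbs1 alone had 301.9 CPM of Prtn3, found in 52 of them. Camp stood there at 1320 CPM beside 867.6 CPM in all 89 monocytes, and S100a8 at 7016 beside 3970 CPM.

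Of 12 markers of granulocyte-like monocyte precursors, 10 were at least 2-fold higher against C1qa cells (median log2 1.99) and 12 of 12 against Arg1 cells (median 2.36). The first of the mixed cells alone held 68.8% of the UMIs of this list, and the summed level went from 3061 to 978.1 CPM without it. Without both mixed cells, 5 of 11 measured were higher and 3 lower against C1qa cells (median 0.98), and 7 higher and 3 lower of 11 against Arg1 cells (median 2.17). Prtn3, Elane or Mpo, all granule genes of myeloid precursors, were found in 25 cells, 9 of which had 3 or more UMIs. Of the 11 neutrophil markers measured, 6 were higher and 3 lower against each comparison group, and the same cell held 85.7% of their UMIs. Without the mixed cells 9 could be measured, 3 were higher and 3 lower against each group, and the medians went from 1.12 to 0.34 and from 1.07 to -0.45. Without the first of them S100a8 stood at 610.2 CPM and S100a9 at 230.3 CPM, instead of 3970 and 3655 CPM.

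Other genes with the largest ratios belonged to no list of monocyte genes. Nfe2, a transcription factor gene known from the erythroid and megakaryocyte lineages, was found in 21 cells at 62.09 CPM, with ratios of 12.4 (8.41 to 18.0) and 10.97 (7.14 to 16.6). Gpr141, the gene of a receptor with no known ligand, was found in 51 cells at 171.2 CPM, with ratios of 9.11 (7.29 to 11.3) and 7.98 (6.28 to 10.1). Pi16, a peptidase inhibitor gene, was found in 25 cells at 60.41 CPM, with ratios of 9.37 (6.36 to 13.5) and 10.2 (6.64 to 15.5). Cd7, a lymphocyte surface protein gene, had ratios of 5.56 and 8.94, but its 36 UMIs came from 10 cells, all among the 14 of the cluster with Cd209a.

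**Figure D3:**
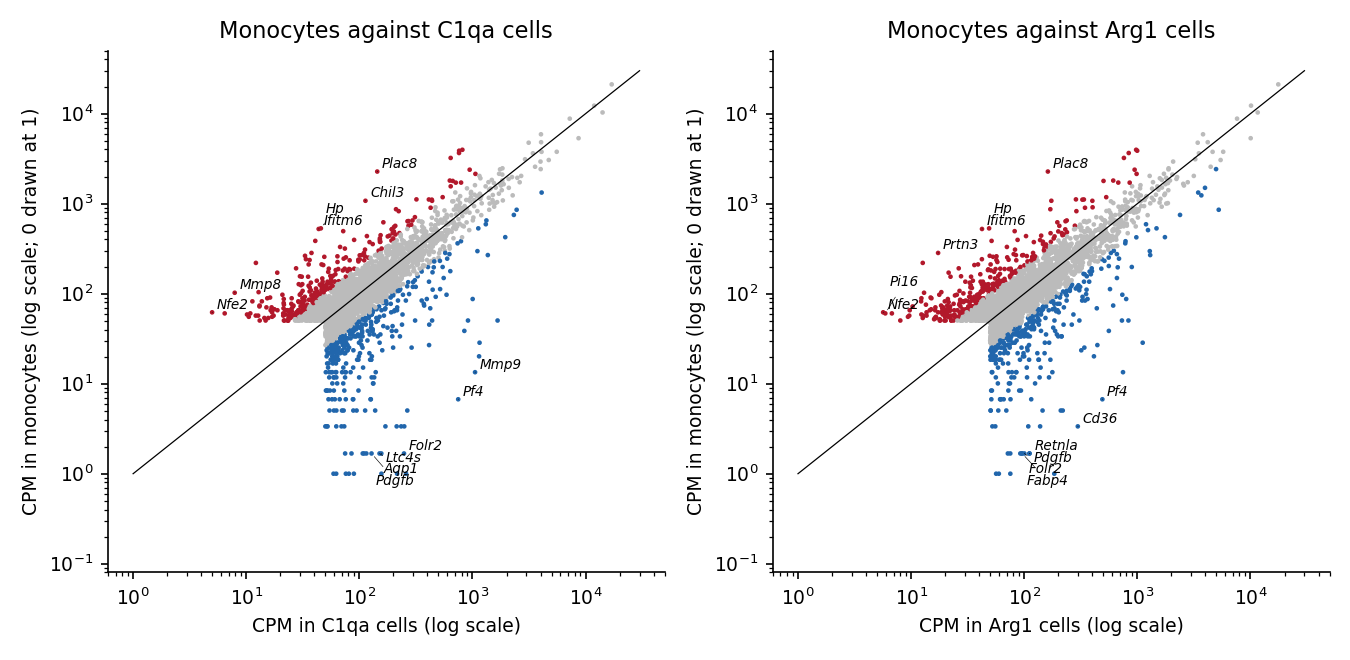
Level of each tested gene in the monocytes (y axis, CPM) against C1qa cells (left, x axis, CPM) and Arg1 cells (right), both axes logarithmic with 0 drawn at 1. Red points are at least 2-fold higher (255 and 294 genes), blue at least 2-fold lower (327 and 313), and most points lie near the diagonal.

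The largest ratios downward came from genes with few UMIs in the monocytes. Folr2, a folate receptor gene of resident macrophages, had 1 UMI in 89 cells against 248.1 CPM in C1qa cells, a ratio of 148-fold with a counting interval of 26.5 to 5841. Pf4, the gene of the chemokine CXCL4, had 4 UMIs (6.71 CPM) against 747.8 CPM and 490.7 CPM, 111-fold (43.5 to 409) and 73.1-fold (28.5 to 268) lower. Mmp9, the gene of gelatinase B, had 8 UMIs (13.4 CPM) against 1054 CPM and 746.8 CPM, 78.5-fold (39.8 to 182) and 55.6-fold (28.2 to 129) lower. The size of the Mmp9 difference depended on the cells compared: its log2 ratio of -6.30 and -5.80 became -0.98 and -0.94 against comparison cells without a Ctsk UMI. Without the zero and Thbs1 conditions of the rule the ratios were -1.75 and -1.27 for Mmp9, and -2.40 and -1.85 for Pf4. Vsig4 had 2 UMIs against 234.4 CPM in C1qa cells (69.9-fold, 19.3 to 577), and Cd36, a scavenger receptor gene, had 2 UMIs against 249.5 CPM and 297.6 CPM (74.3-fold, 20.6 to 614, and 88.7-fold, 24.5 to 733). Ltc4s, Aqp1, Pdgfb, Retnla, Gas6, Cspg4, Fabp4 and Fnbp1l had 1 UMI each, Pmp22 had 2 and Serpinb6a had 3. Their sizes moved with the rule too, Retnla to -0.53 against Arg1 cells without the zero and Thbs1 conditions, and Aqp1 to -0.82 at a minimum of 1 UMI of the selecting genes.

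By list, none of 14 resident and lining macrophage genes was at least 2-fold higher than in C1qa cells and 10 were lower (median log2 -3.23). Against Arg1 cells 3 of 13 were higher and 7 lower (median -1.20). Without the mixed cells the medians were -3.94 and -2.43, with 3 higher and 8 lower against Arg1 cells. Over the alternatives the median against Arg1 cells ran from -2.99 to -0.23. The summed level of the list went the other way against Arg1 cells, with 1287 CPM in the monocytes beside 1071 CPM. In C1qa cells it was 2421 CPM. The list summed per cell had medians of 1151 CPM in monocytes, 717.6 CPM in Arg1 cells and 1526 CPM in C1qa cells. F13a1 is on this list and on the classical monocyte list. Lyve1, Gpr34, Timd4 and Cbr2 had 0 UMIs, and 0 of 89 cells allows a share of up to 3.37% with a UMI by the limit of 3 counts (4.06% by the exact Clopper-Pearson bound). Lyve1 was found in 22.5% of C1qa cells and 73.6% of Vsig4 cells. Of 14 macrophage markers other than C1qa, 11 were lower than in C1qa cells (median -1.95) and 10 lower than in Arg1 cells (median -1.31), and none was higher. C1qb and C1qc, partners of the selecting gene C1qa in complement C1q, had 30 and 12 UMIs (50.34 and 20.14 CPM), 33.1-fold and 56.8-fold lower than in C1qa cells. Fcgr1, the high-affinity IgG receptor gene, had ratios of 1.68 and 1.21.

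Genes of bone-resorbing cells were low as well, in cells chosen to have 0 UMIs of the osteoclast protease gene Ctsk. Of 8 osteoclast genes, 7 were at least 2-fold lower than in C1qa cells (median -2.86) and 6 of 7 lower than in Arg1 cells (median -2.11). Acp5, the gene of tartrate-resistant acid phosphatase, had 17 UMIs (28.53 CPM) against 1155 CPM and 1115 CPM, 40.5-fold and 39.1-fold lower. These folds are of summed UMIs and do not describe a typical cell. The osteoclast list summed per cell had medians of 113.7 CPM in monocytes, 153.9 CPM in C1qa cells and 217.7 CPM in Arg1 cells. The highest cells reached 1512, 38319 and 28149 CPM, in that order. Acp5 was found in 16.85% of monocytes, 38.40% of C1qa cells and 51.76% of Arg1 cells (8.14%, 20.44% and 27.32% after thinning). Of the osteoclast precursor genes, 10 of 12 were lower than in C1qa cells and 9 of 11 lower than in Arg1 cells. Over the alternative settings the median log2 ratio of this list ran from -2.96 to -0.93 against C1qa cells and from -3.55 to -0.86 against Arg1 cells. Tnfrsf11a, which encodes the receptor RANK, stood at 21.81 CPM against 101.3 and 98.51 CPM, and Csf1r, which encodes the receptor for macrophage growth factor, at 412.8 CPM against 678.9 and 473.5 CPM. Dcstamp, Calcr and Oscar had 0 UMIs.

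Lipid and lysosome genes showed the same direction, with 16 of 22 lower than in C1qa cells (median -1.54), 14 of 22 lower than in Arg1 cells (median -1.57) and none higher. Cd63, a late endosome tetraspanin gene, stood at 50.34 CPM against 912.6 and 833.9 CPM. Ctsd, a lysosomal protease gene, stood at 424.5 CPM against 1949 and 1753 CPM. Apoe stood at 1329 CPM against 4087 and 3452 CPM, and Abca1, a cholesterol exporter gene, at 25.17 CPM against 289.6 and 340.0 CPM. Ctss, which encodes cathepsin S, was within 2-fold at 1730 CPM, with ratios of 0.662 and 0.620. Of 23 repair and growth factor genes measured against C1qa cells, 13 were lower and 1 higher (median -1.26). Among them Timp2, a metalloproteinase inhibitor gene, was at 38.60 CPM against 847.6 and 559.7 CPM, and Spp1, the osteopontin gene, at 855.8 CPM against 2457 and 5241 CPM.

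**Figure D4:**
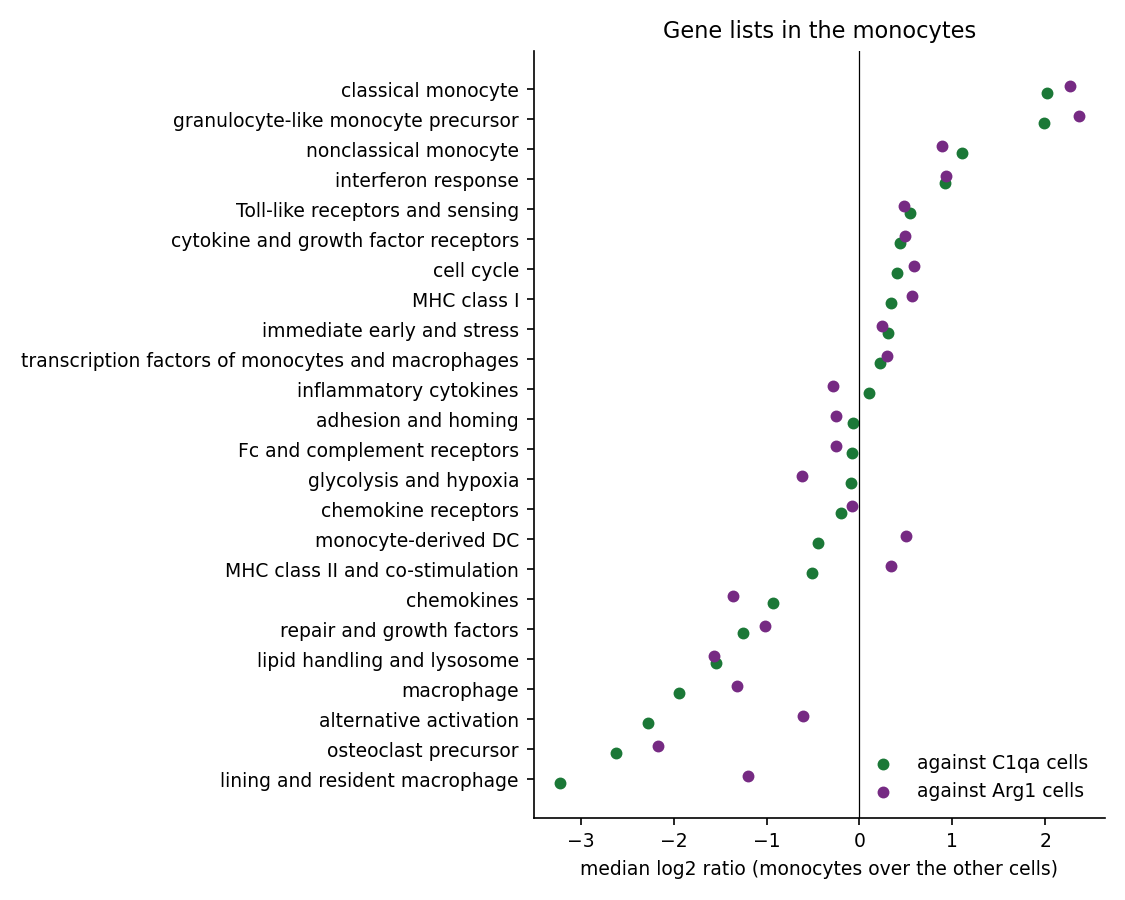
Median log2 ratio of the measured members of each gene list (x axis; monocytes over the comparison cells, above 0 higher in monocytes) by list (y axis), against C1qa cells in green and Arg1 cells in purple. Classical monocyte genes lie at 2.02 and 2.26, and resident and lining macrophage genes at -3.23 and -1.20.

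Receptors and adhesion molecules of circulating leukocytes were split by gene. Itgal, the gene of the integrin alpha chain of LFA-1, stood at 211.4 CPM with ratios of 5.93 (4.89 to 7.15) and 5.42 (4.41 to 6.61). Itgb7 stood at 256.7 CPM with ratios of 5.24 and 4.84, and Itga4, whose integrin alpha4 chain pairs with it, at 181.2 CPM with 2.54 and 3.57. Itgam and Itgb2, the chains of Mac-1, had ratios of 0.944 and 0.838, and of 0.962 and 0.760. Itgav, which encodes the integrin alphaV chain, was lower, at 58.73 CPM against 240.7 and 272.2 CPM. Of the 22 adhesion genes measured, 5 were higher and 5 lower than in C1qa cells (median -0.07), beside 7.63% and 9.78% of all tested genes. Against Arg1 cells these were 5 and 3 (median -0.25), beside 8.88% and 9.46%.

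Ccr2 itself, a selecting gene, stood at 1306 CPM against 297.5 and 308.2 CPM. Among 13 other chemokine receptor genes measured, 2 were higher and 2 lower than in C1qa cells (median -0.20), beside 7.63% and 9.78% of all tested genes. Ccr1, a receptor gene of inflammatory chemokines, had ratios of 1.28 and 1.02. C3ar1, the complement C3a receptor gene, was at 83.90 CPM against 355.7 and 344.9 CPM. C3 itself, the gene of the complement protein, was at 224.9 CPM against 64.09 and 57.87 CPM, ratios of 3.51 (2.92 to 4.18) and 3.89 (3.204 to 4.68). So the ligand's precursor and its receptor differed in opposite directions.

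Some cytokine receptor genes of early myeloid cells were higher, and most were within 2-fold. Csf2rb, the shared beta chain of the GM-CSF, IL-3 and IL-5 receptors, stood at 375.9 CPM with ratios of 2.47 and 2.19. Il17ra stood at 283.6 CPM with 2.58 and 2.37, and Csf3r, the G-CSF receptor gene, at 65.44 CPM with 2.84 and 3.10. In 24 such receptor genes measured against C1qa cells, 3 were at least 2-fold higher and 2 lower (median 0.44), and against Arg1 cells 7 were higher and 2 lower of 24 (median 0.49). Beside these counts, 7.63% of all tested genes were higher and 9.78% lower than in C1qa cells, and 8.88% and 9.46% than in Arg1 cells.

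Interferon-linked genes split into families. Ifitm3, Ifitm2 and Ly6e, membrane proteins induced by interferon, were found in 88 or 89 cells: Ifitm3 stood at 3222 CPM with ratios of 5.02 (4.79 to 5.27) and 4.24 (4.03 to 4.45), Ifitm2 at 2143 CPM with 2.02 and 2.18, and Ly6e at 1715 CPM with 2.16 and 2.53. Zbp1, a nucleic acid sensor gene, had ratios of 3.44 and 2.78, and Oasl2 2.28 and 2.41. Isg15 stood at 73.83 CPM with ratios of 1.20 (0.868 to 1.62) and 0.931 (0.672 to 1.26), and Ifit2 and Ifit3 had 2 and 3 UMIs. The rule removed cells with Rsad2, an interferon-induced gene. Of 24 genes measured against C1qa cells and 23 against Arg1 cells, 10 were higher and 2 lower in each, and both medians were 0.93. The shares of all tested genes were 7.63% higher and 9.78% lower, and 8.88% and 9.46%, in that order.

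Among sensing genes, Myd88, the adaptor of Toll-like receptors, had ratios of 2.41 and 2.25, and Cd14, the endotoxin co-receptor gene, 1.39 and 0.924. Clec4d, a lectin receptor gene, was lower, at 135.9 CPM against 226.9 and 375.3 CPM. Of the list, 7 of 20 were higher than in C1qa cells and none lower (median 0.55), while 4 of 19 were higher and 2 lower than in Arg1 cells (median 0.48). Of all tested genes, 7.63% were higher and 9.78% lower than in C1qa cells, and 8.88% and 9.46% than in Arg1 cells.

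Inflammatory ligands were unevenly placed between the groups. Il1b, the gene of interleukin 1 beta, stood at 1480 CPM with ratios of 1.66 (1.55 to 1.77) and 1.40, but it was found in 49 of 89 cells and reached 12206 CPM in a cell. Osm, the oncostatin M gene, stood at 520.2 CPM with ratios of 2.68 and 1.89. Tnf was at 139.3 CPM with 0.956 and 0.551, and Il1rn, the gene of the interleukin 1 receptor antagonist, at 124.2 CPM with 0.589 and 0.411. Of 17 genes measured against C1qa cells 2 were higher and 4 lower (median 0.10), beside 7.63% and 9.78% of all tested genes. Against Arg1 cells these were 1 and 5 of 15 (median -0.28), beside 8.88% and 9.46%.

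Chemokine RNA was mostly lower. Of 19 genes, 4 were higher and 9 lower than in C1qa cells (median -0.94), and of 16, none was higher and 10 were lower than in Arg1 cells (median -1.36). Among all tested genes the shares were 7.63% higher and 9.78% lower, and 8.88% and 9.46%, in that order. Ccl6 stood at 550.4 CPM with ratios of 2.72 and 1.80, and Ccl4 at 641.0 CPM with 2.36 and 1.88. Cxcl2, a neutrophil attractant gene, stood at 1500 CPM with 0.716 and 0.379, and Ccl7, a CCR2 ligand gene, at 35.24 CPM with 0.427 and 0.226. Ccl12, another CCR2 ligand gene in mice, had 1 UMI.

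Of 28 transcription factor genes, 3 were higher and 4 lower than in C1qa cells (median 0.22), and 4 and 3 against Arg1 cells (median 0.30). The shares of all tested genes were 7.63% higher and 9.78% lower, and 8.88% and 9.46%, in that order. Cebpb, a factor of myeloid cells, stood at 1559 CPM with ratios of 2.43 (2.27 to 2.60) and 1.74 (1.62 to 1.86), and Irf5 at 137.6 CPM with 2.10 and 2.12. Spi1, which encodes PU.1, stood at 414.5 CPM with 0.974 (0.855 to 1.11) and 1.08 (0.945 to 1.23). Maf was lower, at 77.19 CPM against 371.1 and 183.7 CPM, and Nr1h3, a sterol-sensing receptor gene, had 2 UMIs against 50.06 and 52.29 CPM.

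Genes of nonclassical, patrolling monocytes were not absent. Nr4a1, the factor they need, stood at 411.1 CPM with ratios of 2.06 and 1.61, and Cx3cr1, a fractalkine receptor gene, at 206.4 CPM with 0.789 and 2.06. Ace was found in 6 cells and Spn in 20. Of 14 such genes 8 were higher and 1 lower than in C1qa cells (median 1.10), and 6 and 1 of 13 against Arg1 cells (median 0.89). Without the mixed cells 7 were higher and 1 lower (median 0.91), and 5 and 1 against Arg1 cells (median 0.77). The shares of all tested genes were 7.63% higher and 9.78% lower, and 8.88% and 9.46%, in the same order. Glycolysis and hypoxia genes were lower against Arg1 cells than against C1qa cells, with medians of -0.62 and -0.09. Tpi1, a glycolytic enzyme gene, had ratios of 0.395 and 0.554 in that order. These medians come from the same monocytes, and the difference was not tested. Cell cycle genes had medians of 0.41 and 0.59, which were 0.04 and 0.18 without the mixed cells, and Mki67 or Top2a, genes of dividing cells, were found in 10 cells and at 3 or more UMIs in 6.

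For MHC class II, the position of the monocytes depended on the comparison. Cd74 stood at 2935 CPM, below the 3994 CPM of C1qa cells (ratio 0.735) and above the 2072 CPM of Arg1 cells (1.42). H2-Ab1 followed the same order with 1040 CPM against 1651 and 822.3 CPM. H2-DMa, which helps load peptide, was higher than in both, with ratios of 1.81 and 2.74. Over 13 genes the medians were -0.51 and 0.34. The second sign rested on the cells counted: against Arg1 cells the median was -1.46 in the 49 monocytes of the cluster led by Ly6c2, -0.43 without the 14 of the cluster with Cd209a, and -0.08 at a minimum of 3 UMIs of both selecting genes. The group levels hide a split between cells, since H2-Ab1 was found in 38 of 89 monocytes and 19 of them had 10 or more UMIs.

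The monocytes did not form a cluster of their own. At a Leiden resolution of 1 they fell in 9 of 24 clusters, 49 (55.1%) in a cluster of 233 cells led by Ly6c2, Plac8, Hp, Slpi and Mmp8, of which 81.1% had both selecting RNAs. Another 14 were in the cluster with Cd209a, 13 (14.6%) in a cluster led by Thbs1, Saa3, Ptgs2, Plac8 and Il1b, 6 (6.74%) in one led by Cxcl13 and MHC class II genes, and 3 in one led by Cxcl1 and Arg1. The 4 others lay in clusters led by Camp, Rsad2, T cell genes and cell cycle genes. At a resolution of 0.5 the cluster with the most monocytes held 59, and at 2 it held 47. These clusters use every gene, so their levels are a description, and the clusters spoken of here were picked after their values were seen.

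Levels differed widely between these sets. Chil3 stood at 1524 CPM in the 49 cells of the cluster led by Ly6c2 and 993.0 CPM in the 13, and had 0 UMIs in the 14 and in the 6. Prtn3 was found at 517.6 CPM in the 49 and 30.34 CPM in the 14, with 0 UMIs in the 13 and the 6. Other granule and defence genes were also found in the 13: Mmp8 at 52.27 CPM beside 166.2 CPM in the 49, Slpi at 196.0 beside 370.1 CPM and Saa3 at 117.6 beside 693.2 CPM. Ifitm1 reached 5369 CPM in the 14 against 75.28 CPM in the 49, and H2-Ab1 3590 CPM in the 14, 6495 CPM in the 6 and 185.1 CPM in the 49. Genes of inflammation stood highest in the 13, with Il1b at 3071 CPM against 1421 CPM in the 49, Cxcl2 at 5684 CPM against 981.8 CPM, and Cd14 at 1594 CPM against 605.4 CPM. Ms4a4c was alike in the 49 and the 14, at 385.8 and 404.5 CPM, as was Napsa at 533.2 and 525.8 CPM.

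Among the monocytes, cells were also ordered by Ly6c2 itself, into 32 cells with 2 to 3 UMIs, 26 with 4 to 7 and 29 with 8 or more once the 2 mixed cells were set aside. Median depth went from 5006 to 6894 UMIs between the outer classes, and the part of depth in what follows was not tested. Prtn3 went from 5.81 CPM in the lowest class to 696.6 CPM in the highest (1 and 17 cells), and Hmgb2, a chromatin protein gene of dividing cells, from 197.7 to 2015 CPM. S100a8 went from 46.51 to 1402 CPM, and Ube2c, a mitosis gene, from 5.81 to 277.8 CPM. Single cells weighed in these levels: of the highest class, 1 cell held 58 of 158 Prtn3 UMIs, 1 held 178 of 457 for Hmgb2, 1 held 146 of 318 for S100a8 and 1 held 40 of 63 for Ube2c. Plac8 differed less, from 1622 to 3086 CPM, and Ccr2 stood at 1448 and 1380 CPM.

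In the other direction, MHC class II genes were highest where Ly6c2 was lowest. The 14 monocytes of the cluster with Cd209a had at most 7 Ly6c2 UMIs each, so none lay in the highest class. Cd209a was found in 7, 5 and 0 cells from the lowest to the highest class. What follows thus describes the clusters as well as the Ly6c2 classes. From the lowest to the highest class, H2-Eb1 stood at 1582, 607.4 and 44.09 CPM, H2-Aa at 2489, 1194 and 127.9 CPM, and Cd74 at 5483, 4061 and 542.3 CPM. Bhlhe40, a stress-responsive transcription factor gene, took the same order with 564.0, 339.0 and 52.91 CPM. Il1b and Spp1 were highest in the middle class and lowest in the upper one, Il1b at 2157, 2366 and 379.2 CPM and Spp1 at 1233, 2041 and 39.68 CPM. Single cells weighed here as well. In the lowest class 1 cell held 105 of 272 H2-Eb1 UMIs. For Spp1, 1 cell held 155 of 212 UMIs in the lowest class and 1 held 153 of 289 in the middle. For Il1b these were 63 of 371 and 97 of 335 UMIs, so the order of the lowest and middle class is not firm. Over 1137 genes that met the level rule, 68 were at least 2-fold higher and 65 lower in the highest class.

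The same cells were ordered by their share of MHC class II UMIs (H2-Aa, H2-Ab1, H2-Eb1 and Cd74). Without the mixed cells the lower class held 30 cells, all at 0, the middle class 29 with a median of 233.4 CPM, and the upper class 28 between 3201 and 65344 CPM. The upper class was mostly made of cells of other clusters than the lower: 14 of its 28 cells lay in the cluster with Cd209a, 6 in the one led by Cxcl13 and 6 in the one led by Ly6c2, while 23 of the 30 cells of the lower class lay in the last of these. The 14 and the 6 had 0 Chil3 UMIs, so what follows describes the clusters as much as the classes. Depth was alike, with medians of 5441, 5532 and 6128 UMIs, and the median number of Ly6c2 UMIs was 6, 7 and 3.5. Chil3 went from 1668 to 1163 to 239.6 CPM over the classes, Hp from 867.7 to 599.3 to 110.6 CPM and Prtn3 from 631.5 to 199.8 to 18.43 CPM. Saa3 went from 944.9 to 199.8 CPM and then to 0 UMIs, and Slpi was found in 20 cells of the lower class and 1 of the upper. Plac8 was highest in the middle class, at 2671, 3367 and 1278 CPM.

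Genes that stood with MHC class II included H2-DMb1, a peptide-loading gene that was not in the ordering set, at 14.46, 47.00 and 454.6 CPM. Ifitm1 stood at 168.7, 217.4 and 3434 CPM. Rgs1, a regulator of chemokine receptor signals, stood at 62.67 CPM in the lower and 638.9 CPM in the upper class, Traf1, a TNF receptor adaptor gene, at 43.39 and 393.2 CPM, and Cxcl16 at 24.10 and 294.9 CPM. Cd209a was found in 12 cells, all in the upper class. Ccr2 stood at 1229 CPM in the lower and 1315 CPM in the upper class, so the selecting receptor gene did not follow this order. Of 1014 genes, 55 were at least 2-fold higher and 88 lower in the upper than in the lower class.

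**Figure D5:**
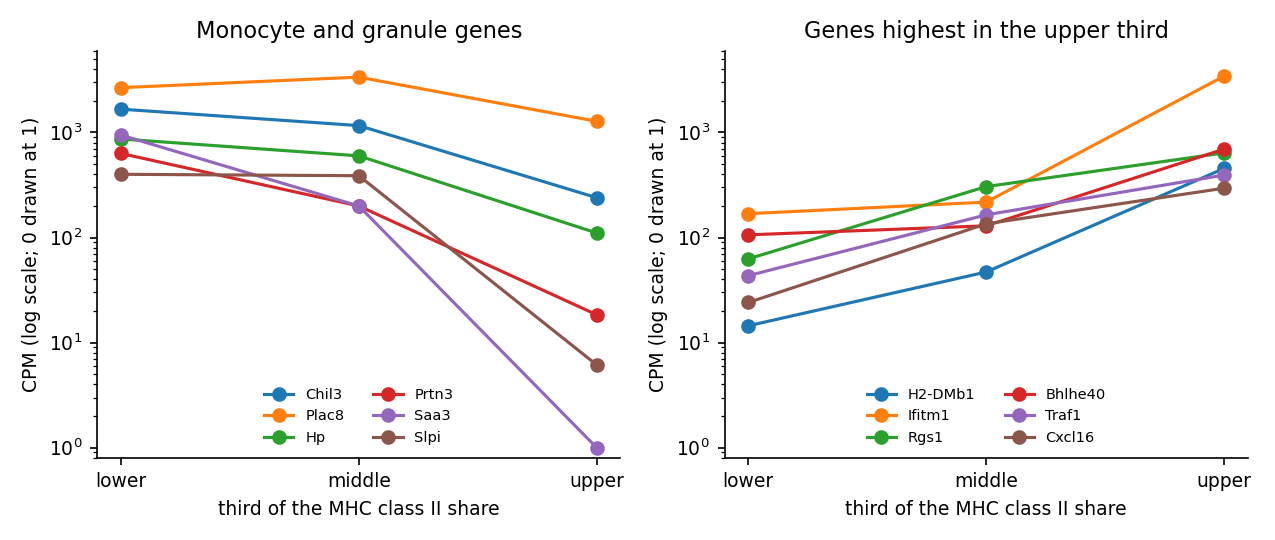
Level (y axis, CPM, logarithmic, with 0 drawn at 1) in the lower, middle and upper class of MHC class II share (x axis) among 87 monocytes, without the 2 mixed cells, with a line for each of 12 genes. On the left Chil3, Hp, Prtn3 and Saa3 step down from the lower to the upper class, and on the right H2-DMb1 and Ifitm1 stand highest in the upper class.

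In the CD45- libraries the rule found 0 of 7368 cells at day 0 and 0 of 11172 at day 5. Ly6c2 had 24 and 26 UMIs there, and Ccr2 had 2 and 6. Ly6c1, a neighbouring gene whose last 300 transcript bases are 96.7% identical to those of Ly6c2, had 0 UMIs in the monocytes and stood at 1544 and 1034 CPM in the stromal libraries. RNA of CCR2 ligands was in these libraries, and their levels were, in day order, 30.04 and 217.1 CPM for Ccl2 and 56.34 and 359.1 CPM for Ccl7. Csf1, the macrophage growth factor gene, stood at 196.1 and 164.5 CPM. Each day is 1 library. Stromal cells of day 9 are not analysed here, so ligand and monocyte levels are from different days. The libraries share 22 to 35 cell barcodes between each pair, and no monocyte barcode was among them.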

How the data were processed

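The authors deposited raw UMI counts per gene and cell barcode. Per the file headers Cell Ranger 6.0.1 made them, and per the labels' protocols the reference was the 10x mm10 genome, with barcodes called as cells. The submitters' processing notes also name Seurat 4.3.0, with no role given for these files. The 10x 3' v3.1 kit reads transcript ends, so levels are not scaled by length. The day 9 library held 69430907 UMIs in 7795 barcodes. The cell filter asked for at least 500 genes, at least 1000 UMIs and no more than 10% mitochondrial UMIs, and 5945 cells passed with a median of 6741 UMIs.

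UMIs were summed over each group of cells and divided by the group's total to give CPM. The 95% intervals are Clopper-Pearson for shares, exact Poisson for CPM and exact conditional binomial for ratios. Each library stands alone and its cells do not replicate it, so no test was run, and a fold of 2 is a size. Genes were used with at least 50 CPM in the higher group and 50 counts over both, and list members with at least 20 counts. In list counts and medians a group at 0 was set to 3 counts, and a gene whose level at 3 counts lay beyond the other group's was left out as not measurable at this depth. The 8 genes of the rule were left out of the counts, as were predicted, sex-linked, haemoglobin, antigen receptor, ribosomal protein and mitochondrial genes. Named genes are the 12 with the largest ratio in each direction and, per list, the 3 of highest level, the 2 of largest ratio in the direction of the median and the 1 of largest ratio the other way. Within the monocytes they are the 8 of largest ratio between outer classes in each direction. Other genes are examples chosen after their values were seen. Some genes that meet the naming rule are not reported here. The members, the 14 marker lists and the 18 gene lists were chosen with earlier results of these data known.

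Leiden clusters (scanpy 1.11.5) came from 15 neighbours in 30 principal components of 2000 variable genes. Other tools were Python 3.11.15, numpy 2.4.6, scipy 1.17.1, pandas 2.3.3, matplotlib 3.10.9 and R 4.3.3 with edgeR 4.0.16 and DESeq2 1.42.0, used for scaling factors alone. Alternatives were looser and stricter cell filters, removal of the highest doublet scores, minimums of 1 and 3 UMIs for the selecting genes, thinning to 2000 UMIs, other scalings, the mean of each cell's CPM, no count minimum and other limits on the comparison cells. A further 6, on mixed cells, clusters, top cells, the conditions of the rule and Ctsk, were chosen after seeing the data. The computation was tested on simulated data. Promoter sequences are RefSeq windows of GRCm38.p6, and gene positions are from the mm10 annotation.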

Additional observations from a re-analysis of the deposited data

How the results depend on the processing

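The number of monocytes followed the rule: a stricter cell filter left 52, a minimum of 1 UMI of each selecting gene gave 135, and dropping the zero and Thbs1 conditions gave 751. Without those conditions 164 genes were at least 2-fold higher and 153 lower than in C1qa cells, and 184 and 121 against Arg1 cells. In the 49 monocytes of the cluster led by Ly6c2, 405 were higher than in C1qa cells, and 451 were higher and 479 lower than in Arg1 cells. The cause was not tested. With no count minimum and 0.5 added, the counts were 3709 and 1905 against C1qa cells and 3079 and 1710 against Arg1 cells, because genes with few counts then enter. Against Arg1 cells without Ctsk, 193 genes were higher. The other 70 counts of cells or genes over the alternatives stayed within 1.5 times the value reported.

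Single genes and list medians of at least 1.5-fold turned direction in 4 values. Fabp4 had a log2 ratio of 0.71 against Arg1 cells at the minimum of 1 UMI and Cd7 one of -0.16 without the monocytes of the cluster with Cd209a, which held all its UMIs. Against Arg1 cells, the median of the cell cycle list was -0.23 without each gene's top cell, and that of the alternative activation list was 0.33 without the zero and Thbs1 conditions, from -0.60. List medians nearer to 0 changed sign more often: over all alternatives 18 of 48 medians took the other sign at least once, the MHC class II list against Arg1 cells in 3 of 19 alternatives with a lowest value of -1.46. The cause of the Fabp4 and alternative activation changes was not tested. Without each gene's top cell, 54 of 255 and 63 of 294 higher genes were under 2-fold. TMM and median-of-ratios scaling moved all genes by at most 0.04 on the log2 scale. Depth limits genes with few UMIs in 89 cells: 3 counts, the limit used for 0 UMIs, are 5.03 CPM. No paired analysis was possible because the monocytes and their comparison cells come from 1 library, which has no replicate.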
